A study of Mus musculus with 6 samples.

Results

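The colony-stimulating factors and their receptors are 8 genes, namely the ligand genes Csf1, Il34, Csf2 and Csf3 and the receptor genes Csf1r, Csf2ra, Csf2rb and Csf3r. They were found in the data by gene symbol, and all 8 were present among the 22442 genes measured. The libraries came from mouse renal tubular epithelial cells (mTECs), which the labels describe as magnetically sorted and the study's methods as an immortalised line. Epithelial cells in culture thus stand here for the tubule. The study's methods describe no addition of leukocytes, and whether other cells were carried over was not tested. All 6 libraries came from cells given lipopolysaccharide (LPS), the endotoxin of Gram-negative bacteria, at 20 μg/ml for 24 h. No library from cells without LPS was compared. There were 3 libraries labelled LPS, from cells transfected with a negative control, and 3 labelled LPSKD, from cells transfected with siRNA. The series' design text names Stat3 as the silenced gene. The study lists its mouse Stat3 reagent as an shRNA, so the sources differ on the kind of RNA. The transcription factor gene Stat3 checks these labels. Its level was 34.6, 31.4 and 35.2 FPKM (fragments per kilobase of coding sequence, scaled to the library total) under the label LPS and 30.8, 35.2 and 34.3 under LPSKD, a log2 difference of −0.01 (limma, SE 0.07, adjusted p = 0.944). The groups overlapped, so the targeted transcript was not measurably lower, and directions below refer to the labels only. The study itself reports Stat3 knockdown in mTECs by real-time PCR and western blot. Whether those cells gave these libraries is not said in the sources used here. Nothing in the labels says that the replicates of a group were separate cultures, and the p-values then measure the spread between these libraries, which may be technical.

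As background, each factor was named for the blood cell colonies it supports. CSF1 (M-CSF) and interleukin-34 are unrelated in sequence but both bind the receptor tyrosine kinase CSF1R, on which most tissue macrophages depend for survival, and in the injured kidney CSF1 made by tubular cells is known for its part in macrophage growth and tubular repair. CSF2 (GM-CSF) binds a specific α chain, encoded by Csf2ra, together with the β-common chain, encoded by Csf2rb, which interleukin-3 and interleukin-5 also use, and the complex signals through JAK2 and STAT5. CSF3 (G-CSF) drives the production and release of neutrophils through paired CSF3R chains, which signal largely through JAK kinases and STAT3.

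The libraries held between 24084827 and 25422171 fragments, as recovered from the FPKM values. Of the 8 genes, 5 had a mean of at least 0.5 FPKM and were tested among 11723 such genes, while Csf2ra, Csf2rb and Csf3r lay under that mean. With limma on log2(FPKM + 0.1) and a Benjamini-Hochberg adjusted p under 0.05, 2 of the 5 tested members were called, Csf1 and Csf1r, both higher in LPSKD, beside 3.23% of all tested genes (1.57% higher and 1.66% lower). All 5 had an unadjusted p under 0.05, as did 17.6% of all tested genes. The groups did not overlap for 4 of the 5, against 23.8% of all tested genes. An exact permutation test over the 20 ways to label 3 against 3 libraries cannot give a two-sided p below 0.1.

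**Figure D1:**
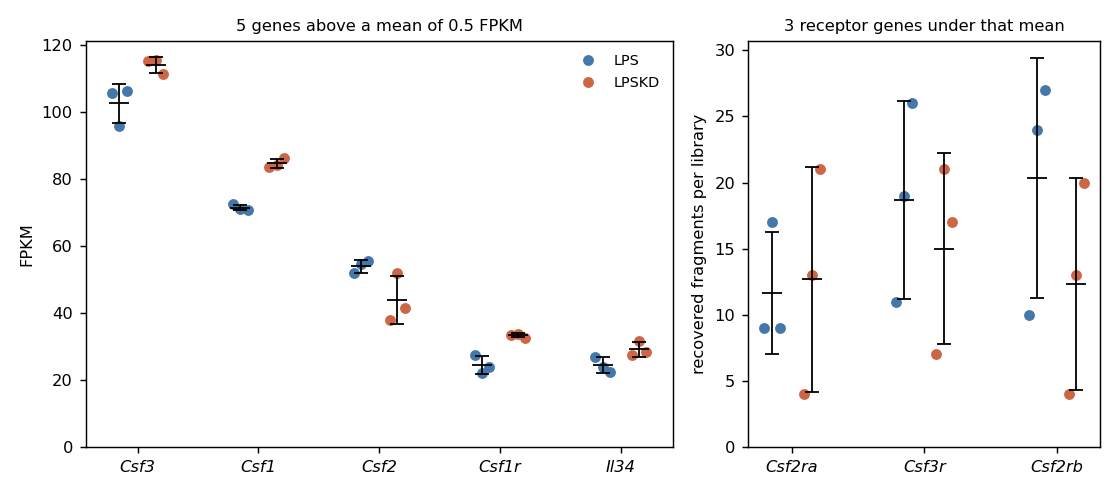
Level of each of the 8 genes in every library, with points for libraries and bars for the mean ± SD of 3. The left panel gives FPKM for 5 genes and shows Csf1 and Csf1r higher in all 3 LPSKD libraries, and the right panel gives recovered fragments per library for 3 receptor genes, from 4 to 27, with the groups overlapping for each.

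Csf1 rose in the libraries labelled LPSKD by a small and even amount. The gene (ENSMUSG00000014599) lies on the minus strand of chromosome 3 (GRCm38 chr3:107741048-107760469). Its level was 72.5, 71.2 and 70.9 FPKM in LPS and 83.6, 84.2 and 86.3 FPKM in LPSKD. Every LPSKD library was above every LPS library, and the spread within each group was far smaller than the gap. The mean went from 71.5 ± 0.824 to 84.7 ± 1.42 FPKM (SD, n = 3 each), 18.4% higher. The log2 fold change was 0.24 (SE 0.04, 95% interval 0.16 to 0.33, limma adjusted p = 0.00994), and the exact permutation p was 0.1. Between 3260 and 4128 fragments per library stood behind these values, and Csf1 ranked between the percentiles 87.2 and 89.8 of the 16837 genes above 0. The call was lost without LPS replicate 3 (limma adjusted p = 0.0622), without LPSKD replicate 3 (0.0609), and with variance moderation without a trend (0.0616).

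The bases just before the start of Csf1 are shown beside those of Csf2, the ligand gene whose values lay the other way, as RefSeq gives them. The 250 bases before each start site were read 5′ to 3′ on the gene's own minus strand, from chr3:107760470-107760719 for Csf1 and chr11:54249900-54250149 for Csf2 (GRCm38.p6). Capitals mark matches to the letters searched on both strands.
Csf1: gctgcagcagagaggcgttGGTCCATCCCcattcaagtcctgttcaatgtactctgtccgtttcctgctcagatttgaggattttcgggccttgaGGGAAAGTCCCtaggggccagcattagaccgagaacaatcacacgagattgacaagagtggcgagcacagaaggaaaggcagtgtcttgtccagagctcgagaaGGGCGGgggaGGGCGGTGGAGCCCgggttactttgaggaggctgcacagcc
Csf2: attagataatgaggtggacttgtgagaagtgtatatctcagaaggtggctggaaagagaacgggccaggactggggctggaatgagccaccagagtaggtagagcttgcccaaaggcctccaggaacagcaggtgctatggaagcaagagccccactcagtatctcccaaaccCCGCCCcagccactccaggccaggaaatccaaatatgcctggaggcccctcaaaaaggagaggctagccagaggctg
In the Csf1 window, the NF-κB letters (GGG and CC separated by any 5 bases) matched at positions −231 to −222, −155 to −146, −154 to −145 and −37 to −28, counted from −1 at the base before the start, and the middle pair overlap each other. The Sp1 letters GGGCGG matched there at −51 to −46 and at −41 to −36, the latter overlapping the last NF-κB match. The Csf2 window held only 1 Sp1 match, at −77 to −72. Neither window held the STAT letters TTCNNNGAA, the AP-1 letters TGANTCA, the interferon response letters (GAAA repeated after any 2 bases), the C/EBP letters TTNCGNAA or the TATA letters TATAAA. Among all 32851 RefSeq windows of the same length, 45.8% held the NF-κB letters, 32.7% the Sp1 letters, 12.4% the TATA letters, 7.02% the STAT letters, 6.75% the AP-1 letters, 2.98% the interferon response letters and 2.04% the C/EBP letters. The windows of Csf2ra and Csf3r, neither of which was called, also held the NF-κB letters, and that of Csf2ra the Sp1 letters. A match is a run of letters and no measured binding. The RefSeq and GENCODE starts of Csf1 are the same base, whereas the RefSeq start of Csf2 lies 232 bases upstream of the GENCODE one. The 232 bases just before the GENCODE start of Csf2 were therefore not searched. By that start the 2 windows are not like for like, and the absence of letters in the Csf2 window is no contrast with Csf1.

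Il34, which encodes the second ligand of CSF1R, did not pass the threshold, although its values lay on the same side. The gene (ENSMUSG00000031750) lies at chr8:110741829-110805924 on the minus strand. Its level was 26.9, 24.0 and 22.3 FPKM in LPS and 27.5, 31.5 and 28.4 FPKM in LPSKD. The groups did not overlap, but LPS replicate 1 and LPSKD replicate 1 lay close together. The means were 24.4 ± 2.34 and 29.1 ± 2.12 FPKM, with a log2 difference of 0.26 (SE 0.08, 95% interval 0.07 to 0.45, limma adjusted p = 0.156, exact permutation p = 0.1).

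Csf1r, the gene of the receptor that both ligands share, rose in LPSKD. The gene (ENSMUSG00000024621) lies at chr18:61100598-61132149 on the plus strand. Its level was 27.4, 21.98 and 23.95 FPKM in LPS and 33.5, 33.8 and 32.7 FPKM in LPSKD. The LPSKD libraries lay close together and all stood above the more scattered LPS libraries. The mean went from 24.4 ± 2.74 to 33.3 ± 0.583 FPKM (SD, n = 3 each), 36.3% higher, with a log2 fold change of 0.45 (SE 0.08, 95% interval 0.27 to 0.63, limma adjusted p = 0.0208, exact permutation p = 0.1). Its fragments numbered 1605 to 2457 per library. The call was lost without LPS replicate 3 (limma adjusted p = 0.0904), without any one LPSKD library (limma adjusted p = 0.0856, 0.0835 and 0.0774 without replicates 1, 2 and 3), and with variance moderation without a trend (0.0867).

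CSF1R is best known as a receptor of macrophages, so the markers of that lineage are given beside it. Of 16 macrophage and monocyte markers, none was at 0 in all libraries, 14 were tested and none was called by limma (2 had an unadjusted p under 0.05, and voom on recovered fragments called 1). Their summed level was 149 to 160 FPKM in LPS and 157 to 171 FPKM in LPSKD. Single markers mostly lay the other way, as 11 of the 14 tested had a negative log2 difference and 3 a positive one (median −0.12). Cd14 and Cd74, the most abundant of the list, weigh most in the sum. The pan-leukocyte gene Ptprc averaged 0.880 and 0.818 FPKM in the 2 groups, the macrophage surface gene Adgre1 1.03 and 0.770 FPKM, and the integrin gene Itgam had 0 to 4 fragments per library. The complement genes C1qa, C1qb and C1qc of the list were higher, at 7.15, 7.26 and 6.03 FPKM in LPS. In LPSKD they were at 6.67, 6.02 and 5.52 FPKM, and each had 81 to 155 fragments per library. The highest marker was Cd14, the LPS co-receptor gene, which tubular cells can also express, at 64.0 ± 1.36 FPKM in LPS and 73.3 ± 2.54 FPKM in LPSKD (limma log2 difference 0.19, adjusted p = 0.0500007, just above the threshold). The Csf1r level was 24.4 and 33.3 FPKM. The antigen presentation gene Cd74, at 28.7 and 31.9 FPKM, was above it in LPS and below it in LPSKD. The lysozyme gene Lyz2 at 21.6 and 21.4 FPKM and the lysosomal gene Cd68 at 13.7 and 11.1 FPKM were below it in both groups. These markers other than Cd14 were named outside the rule, after their values were seen. In bulk RNA, fewer cells of a type and less RNA per cell cannot be told apart, and the part of any such cells in the Csf1r level was not tested.

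**Figure D2:**
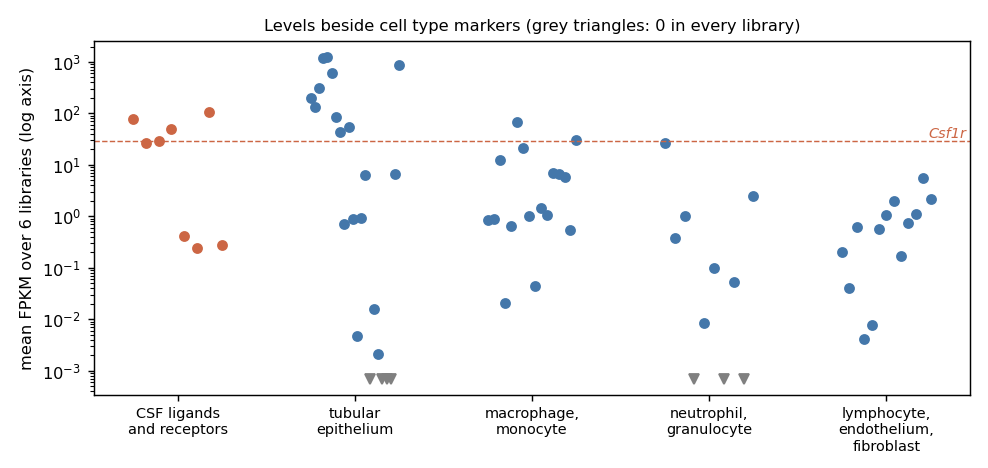
Mean level over the 6 libraries (FPKM, log axis) of the 8 genes and of the markers of 4 groups of cell types, with 1 point per gene and grey triangles for genes at 0 in every library. The dashed line marks Csf1r, which lies above all but 2 of the 16 macrophage and monocyte markers.

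The labelled cell type was checked against 22 tubular epithelial markers, of which Slc34a1, Aqp2, Umod and Calb1, which mark differentiated nephron segments, were at 0 in every library. The list also holds Havcr1, the gene of Kim1, and Lcn2, which the study uses as markers of renal injury. These 2 genes do not bear on the cell type. Lrp2, Slc12a1 and Slc12a3 had at most 3 fragments in any library, and Hnf4a and Cubn averaged 0.898 and 0.944 FPKM. The epithelial keratin gene Krt18 was the highest in the mean over all 6 libraries, at 1290 and 1164 FPKM in LPS and LPSKD, with its partner keratin gene Krt8 at 1205 and 1170 FPKM, and the kidney cadherin gene Cdh16 was at 183 and 220 FPKM. Of the 15 tested, 5 rose and 1 fell in LPSKD, beside 1.57% higher and 1.66% lower of all tested genes. The summed level was 4538 to 4635 FPKM in LPS and 4803 to 4876 FPKM in LPSKD. That sum is weighted to its most abundant genes. Lcn2 alone averaged 719 FPKM in LPS and 999 FPKM in LPSKD, while Krt18 and Krt8 averaged lower in LPSKD. The risers named by the rule were Lcn2, an iron-binding protein gene of injured tubules (log2 fold change 0.47, limma adjusted p = 1.55e-04), the renal transcription factor genes Pax2 (0.60, 0.00101) and Pax8 (0.39, 0.00844), and Cdh16 (0.27, 0.00935). The other riser was the water channel gene Aqp1, with the largest log2 fold change of the 5 (0.93, limma adjusted p = 0.0174). Krt18 fell by 0.15 on the log2 scale (limma adjusted p = 0.0319). The part of these epithelial differences in the Csf1 and Csf1r values was not tested.

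Csf2 was the ligand gene with lower values in LPSKD, and it did not pass the threshold. The gene (ENSMUSG00000018916) lies at chr11:54247271-54249667 on the minus strand. Its level was 51.9, 54.7 and 55.4 FPKM in LPS and 38.0, 52.0 and 41.7 FPKM in LPSKD. The LPS libraries lay close together, while LPSKD replicate 2 stood apart from the other 2 LPSKD libraries and overlapped the LPS group. The means were 54.0 ± 1.89 and 43.9 ± 7.29 FPKM, with a log2 difference of −0.31 (SE 0.10, 95% interval −0.55 to −0.08, limma adjusted p = 0.167, exact permutation p = 0.2). Without LPSKD replicate 2 the log2 difference was −0.44 and passed the threshold (limma adjusted p = 0.0193). The antisense gene Gm12223 covers 96 of the 423 coding bases of Csf2. The strand setting of the counting is not given in the sources used here, so fragments of the pair cannot be told apart there.

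The genes of both chains of the CSF2 receptor were near the detection limit. Csf2ra (ENSMUSG00000059326, chr19:61223957-61228429, minus strand), the gene of the ligand-binding α chain, had 9, 17 and 9 fragments in LPS and 4, 13 and 21 in LPSKD. This amounted to 0.405 ± 0.158 and 0.437 ± 0.287 FPKM, and the groups overlapped widely. In the limma fit over all 16837 genes above 0, of which 1.58% were called, its log2 difference was −0.04 with a 95% interval from −1.19 to 1.12 (adjusted p = 0.989). Csf2rb (ENSMUSG00000071713, chr15:78325752-78353847, plus strand), the β-common gene, had 10, 24 and 27 fragments in LPS and 4, 13 and 20 in LPSKD. Its level was 0.301 ± 0.136 and 0.181 ± 0.115 FPKM, with a log2 difference of −0.54 and a 95% interval from −1.55 to 0.47 (limma adjusted p = 0.664). The intervals take in a doubling and a halving for Csf2ra, and no difference was detectable for either chain at this depth. Of the stretches of 31 bases in the Csf2rb coding sequence, 39.8% also occur in the neighbouring paralogue Csf2rb2, which encodes the interleukin-3-specific β chain of the mouse and had 3, 4 and 18 fragments in LPS and 4, 3 and 7 in LPSKD, so the split between the paralogues is uncertain.

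Csf3 was the most abundant of the 8 genes and did not pass the threshold. The gene (ENSMUSG00000038067) lies at chr11:98701263-98703629 on the plus strand. Its level was 105.8, 96.0 and 106.2 FPKM in LPS and 115.4, 115.5 and 111.4 FPKM in LPSKD. All LPSKD libraries were above all LPS libraries, with LPS replicate 2 the lowest. The means were 102.6 ± 5.78 and 114.1 ± 2.34 FPKM, with a log2 difference of 0.15 (SE 0.05, 95% interval 0.04 to 0.26, limma adjusted p = 0.144, exact permutation p = 0.1). Csf3 ranked between the percentiles 91.1 and 92.7 of genes above 0.

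Csf3r, the gene of the CSF3 receptor, was far below its ligand in level per coding length. The gene (ENSMUSG00000028859) lies at chr4:126024550-126044440 on the plus strand. It had 11, 19 and 26 fragments in LPS and 7, 21 and 17 in LPSKD, and the groups overlapped. Its level was 0.301 ± 0.124 and 0.242 ± 0.1197 FPKM, with a log2 difference of −0.25 and a 95% interval from −1.16 to 0.66 (limma adjusted p = 0.816), so that no difference was detectable at this depth. Of its 31-base stretches, 29.1% also occur in transcripts of another gene, AC105061.2, which leaves the source of these few fragments uncertain. Neutrophils are the best known carriers of CSF3R. Of 10 neutrophil and granulocyte markers, Mpo, Cxcr1 and Camp were at 0 in all libraries, 3 were tested and none was called by limma, at an unadjusted p under 0.05 or by voom. Their summed level was 29.98 to 34.6 FPKM in LPS and 29.5 to 31.3 FPKM in LPSKD, most of it from the surface antigen gene Ly6g at 28.2 and 26.0 FPKM. Of 13 markers of lymphocytes, endothelium and fibroblasts, 8 were tested and none was called by limma, at an unadjusted p under 0.05 or by voom, with the collagen gene Col1a1 the highest at 5.86 and 5.12 FPKM.

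**Figure D3:**
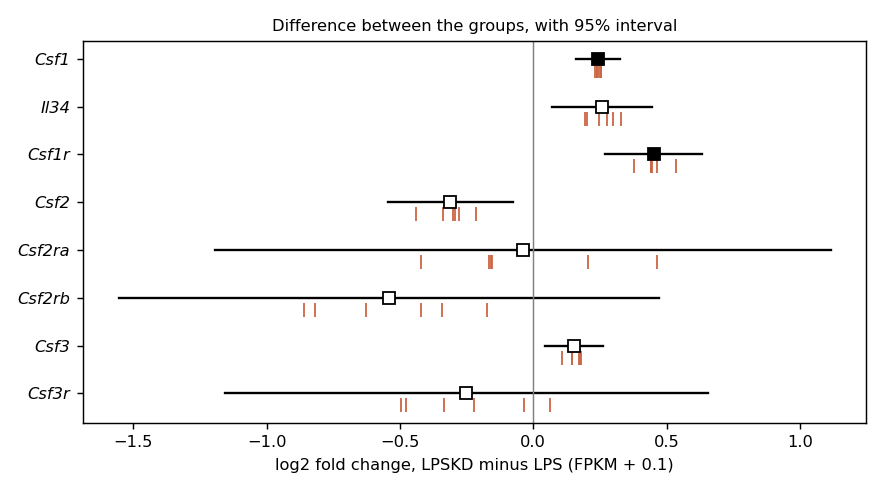
Difference between LPSKD and LPS for the 8 genes as log2 fold change (FPKM + 0.1), with squares for the fit, filled at an adjusted p under 0.05, horizontal lines for the 95% interval and red ticks below for the fits that leave out 1 library. Csf1 and Csf1r are filled at 0.24 and 0.45, and the intervals of Csf2ra, Csf2rb and Csf3r all include 0.

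By level per coding length, the genes ranked Csf3, Csf1, Csf2, then Csf1r and Il34, and far below them Csf2ra, Csf3r and Csf2rb. Neighbours among the first 3 were separated in every library of both groups. Csf1r and Il34 overlapped in LPS, at 21.98 to 27.4 and 22.3 to 26.9 FPKM, and were apart in LPSKD, at 32.7 to 33.8 and 27.5 to 31.5 FPKM. The 3 low receptors were not separable. The place of Csf1 and Csf2 depends on the length used. Per merged exon length, a scale chosen after the data were seen, Csf1 was at 25.5 ± 0.293 and 30.2 ± 0.505 and Csf2 at 28.6 ± 0.999 and 23.2 ± 3.85 FPKM in LPS and LPSKD. On that scale Csf2 was above Csf1 in LPS and below it in LPSKD, while Csf3 remained the highest of the 8. The scale assumes that fragments were counted over whole exons, which the sources used here do not say. If only coding bases were counted, it is not a valid level.

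Ratios of FPKM within a library compare the ligands directly and do not depend on the library total. The ratio of Csf2 to Csf3 was 0.490, 0.570 and 0.522 in LPS and 0.329, 0.450 and 0.374 in LPSKD. The groups did not overlap, although the test cannot go below 0.1 (0.527 ± 0.0401 against 0.384 ± 0.0613, log2 difference −0.47, exact permutation p = 0.1). The ratio of Csf1 to Csf1r was 2.65, 3.24 and 2.96 in LPS and 2.49, 2.49 and 2.64 in LPSKD, with LPS replicate 1 and LPSKD replicate 3 almost touching (log2 difference −0.21, exact permutation p = 0.1). The ratio of Csf1 to Il34, the competing ligands, was 2.95 ± 0.245 and 2.92 ± 0.215 (log2 difference −0.02, exact permutation p = 0.9), and its groups overlapped. The groups also overlapped for Il34 to Csf1r (exact permutation p = 0.2) and Csf3 to Csf1 (exact permutation p = 0.3). The p-values of the 5 ratios were not adjusted, and none was under 0.05.

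**Figure D4:**
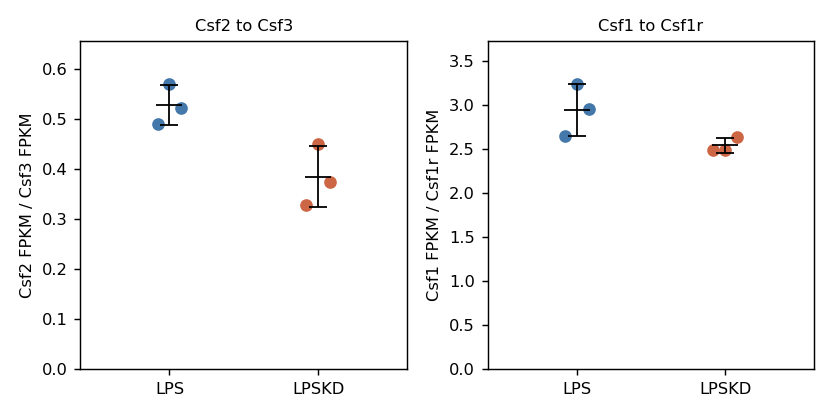
Ratio of FPKM in each library for Csf2 to Csf3 (left) and Csf1 to Csf1r (right), with points for libraries and bars for the mean ± SD of 3. In both panels the LPSKD libraries lie below the LPS libraries. The gap on the left, from 0.450 to 0.490, is no wider than the SDs, and the right has almost none.

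The signalling and regulatory genes around the factors were read from 5 lists that hold 102 genes. Of these, 83 were tested, 1 was called (1.20%, beside 3.23% of all tested genes), lower in LPSKD, and the median log2 difference was −0.01, as over all tested genes. The counts at an unadjusted p under 0.05 given for each list stand beside 17.6% of all tested genes. The list of CSF1R signalling and ligand handling had 25 tested genes of 28, with a median of 0.01 and none called by limma, 4 at an unadjusted p under 0.05 and 1 by voom. Its most abundant gene was the kinase gene Akt1 at 267 and 263 FPKM in LPS and LPSKD, and Adam17, whose protease sheds CSF1 and CSF1R from the cell surface, was at 38.6 FPKM in both. The list of β-common and CSF3 receptor signalling had 17 tested genes of 21, with a median of −0.01, 2 at an unadjusted p under 0.05 and the single call.

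The genes best known for carrying the CSF2 signal were not called. The kinase gene Jak2 was at 25.7 ± 0.670 and 25.1 ± 0.883 FPKM (limma adjusted p = 0.802), Stat5b at 11.4 ± 0.866 and 11.7 ± 0.453 FPKM (0.894) and Stat5a at 1.39 ± 0.262 and 1.27 ± 0.279 FPKM (0.846). The survival gene Bcl2l1 was the most abundant of that list at 425 and 438 FPKM. Jak2, Stat5a, Stat5b and Adam17 were named outside the rule after their values were seen.

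The list of other haematopoietic growth factors and receptors had 7 tested genes of 18, with a median of −0.10 and none called by limma or voom and 2 at an unadjusted p under 0.05. Its highest gene was Lif, a cytokine gene of the interleukin-6 family, at 138 ± 8.48 and 132 ± 3.15 FPKM. All 12 genes of factors that control the decay of cytokine mRNA were tested, with a median of 0.01, none called by limma or voom and 2 at an unadjusted p under 0.05, and the highest was Zfp36l1, an RNA-binding decay factor gene, at 170 and 183 FPKM. The list of transcription factors of CSF promoters had 23 tested genes of 24, with a median of 0.00, none called by limma, 7 at an unadjusted p under 0.05 and 1 by voom. Jund, an AP-1 subunit gene, was the highest there at 297 ± 13.9 and 292 ± 26.1 FPKM.

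**Figure D5:**
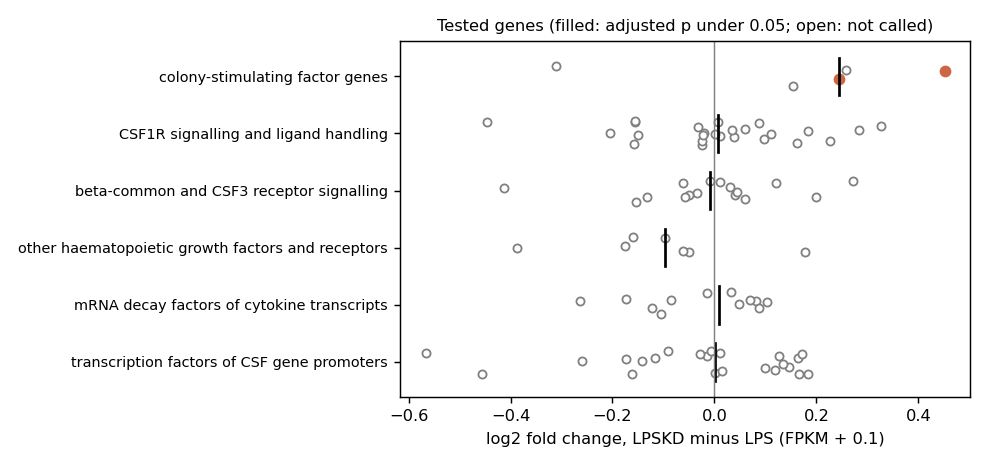
Log2 fold change, LPSKD minus LPS, of each tested colony-stimulating factor gene and each gene of the 5 pathway lists that was tested and not called, with 1 point per gene, filled at an adjusted p under 0.05, and a black bar at the median of all tested genes of each row. The 1 list gene called is not drawn. Csf1 and Csf1r are filled in the top row, and the list medians lie between −0.10 and 0.01.

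The genes whose levels ran most like each factor were found by Pearson's r of log2(FPKM + 0.1) over the 6 libraries, which include the difference between the groups, so that r is given as a description without a p. For Csf1 they were Ywhah (r = 0.999), Nuak1 (0.996) and Slco4a1 (0.995). For Csf1r they were Erbin (0.998), Wnt4 (0.995) and Adh7 (0.995), and for Il34 Creld1 (0.987), Jdp2 (0.987) and Ccdc124 (0.985). Csf2 was most like Rbm5 (0.992), Tap1 (0.991) and Urb2 (0.988), and Csf3 most like Pigm (0.988), Smpdl3b (0.988) and Numa1 (0.987). Of these 15 genes, Slco4a1, an organic anion transporter gene, rose by a log2 fold change of 1.01 (limma adjusted p = 5.33e-05), the ligand gene Wnt4 by 0.77 (0.0196) and the alcohol dehydrogenase gene Adh7 by 0.64 (0.0156). The other 12 did not pass the threshold.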

How the data were processed

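Poly(A) RNA of mTECs was sequenced in pairs on a NovaSeq instrument, with 3 libraries per group. The authors deposited FPKM values, 1 per gene and library, without pooling. Submitters' processing notes name HISAT2 2.0, StringTie 1.3.0 and Bowtie 0.12.2 and the builds mm8 and GRCh38.p13, without saying what each was used for, and the counting tool is not given in the sources used here. Of 22442 gene identifiers, 22399 had a symbol in GENCODE M21 (GRCm38) and 5605 were at 0 throughout.

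Depth was recovered by finding the library totals at which FPKM times coding length gave whole fragments (within 0.01) for 16460 of 16837 genes above 0 (97.8%), against 0% with totals raised by 0.1%. Intervals cover the spread between libraries, and reads without molecular identifiers are not independent molecules. Replicates differed by more than counting noise (chi-square per gene 4.45 to 11.1), so none was counted as a repeat of another.

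Tests used limma 3.58.1 in R 4.3.3 (lmFit, eBayes with trend) on values transformed as log2(FPKM + 0.1), restricted to genes whose mean reached 0.5 FPKM, with Benjamini-Hochberg adjustment over all of them, and Python 3.11.15 for the rest. Fold changes on this scale understate those of low genes. The fit was tested on simulated data. Samples were grouped by their titles. Same-numbered libraries did not deviate together (r −0.0160, −0.00388 and −0.0426), so the numbers were not used as pairs. The 16 alternatives were 2 pseudocounts, 3 filters, 2 scalings, moderation without a trend, a replicate block, voom on the recovered fragments with TMM scaling, and each library left out. Besides the 8 members and Stat3, each list named its called genes (at most 4) and its highest, and each tested member its 3 most similar genes. Other list genes were named after their values were seen. Members and lists were chosen with earlier results of these data known. No promoter sequence was at hand for Csf3, Il34 and Csf2rb, and no window of Csf1r is reported here. The values of 1 gene of the lists are not reported here. Some other samples of the series were not analysed here.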

Additional observations from a re-analysis of the deposited data

How the results depend on the processing

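Csf1 kept its direction in all 16 alternatives and its call in 13, and Csf1r its direction in 16 and its call in 11. With variance moderation without a trend, Csf1 was at 0.24 and Csf1r at 0.45 with limma adjusted p-values of 0.0616 and 0.0867, 0 of the members were called (5 had an unadjusted p under 0.05), and all tested genes called went from 379 to 140. With each library left out, log2 differences ranged from 0.23 to 0.25 for Csf1 (limma adjusted p 0.0158 to 0.0622), 0.38 to 0.54 for Csf1r (0.00413 to 0.0904), 0.20 to 0.33 for Il34 (0.0664 to 0.366), −0.44 to −0.21 for Csf2 (0.0193 to 0.383) and 0.11 to 0.18 for Csf3 (0.124 to 0.340). The low receptors ranged from −0.42 to 0.46 (Csf2ra), −0.86 to −0.18 (Csf2rb) and −0.50 to 0.06 (Csf3r). Without 1 library, members called ranged from 0 (without LPS or LPSKD replicate 3) to 2, pathway list genes from 1 to 2 and all tested genes from 158 to 356, with fewer samples in each fit. The replicate block gave 213 calls over all tested genes and kept Csf1 and Csf1r (limma adjusted p = 0.0454 and 0.0466), with no library closest to its own number. Voom on recovered fragments called 581 genes. Pathway list genes called were 2 with quantile normalization (Sdc1 added), 2 with the replicate block (Jun added) and 3 with voom (Sdc1 and Nfkb1 added). With all libraries, limma adjusted p-values over the alternatives were 0.134 to 0.261 for Il34, 0.125 to 0.305 for Csf2 and 0.127 to 0.273 for Csf3. Where a call changed with the moderation, the block or voom, the cause was not tested. Per merged exon length, chosen after seeing the data, Csf1 over Csf2 went from 1.596 to 1.08 and Csf3 over Csf1 from 1.39 to 1.72. Depth limits Csf2ra, Csf2rb and Csf3r, with 4 to 27 fragments per library.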

Other observations

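The protein-coding gene Hmgxb3 overlaps Csf1r on the opposite strand, outside the range of its coding bases, and was not read as a neighbour. The nearest protein-coding genes without overlap, on each side of the tested members, were read in the same table. Of these 10 neighbours, 8 were tested and 1 was called, Ahcyl1, beside 3.23% of all tested genes. Ahcyl1, which lies 44488 bases from Csf1 and encodes a regulator of calcium release, averaged 150 FPKM and was higher in LPSKD by a log2 fold change of 0.16 (limma adjusted p = 0.0447). Pdgfrb, a receptor tyrosine kinase gene related to Csf1r and 15537 bases from it, averaged 1.13 FPKM, with a log2 difference of −0.34 (limma adjusted p = 0.609). Il3, the cytokine gene 15636 bases from Csf2, had 0 fragments in all 6 libraries, while Csf2 had 401 to 576 per library. Psmd3, a proteasome subunit gene 5284 bases from Csf3, averaged 187 FPKM with a log2 difference of −0.03 (limma adjusted p = 0.764), and Med24, a Mediator subunit gene 962 bases from Csf3, averaged 24.5 FPKM with 0.04 (0.746). The remaining tested neighbours were Sf3b3 beside Il34 (log2 difference 0.03, limma adjusted p = 0.715), Slc26a2 beside Csf1r (0.05, 0.893) and P4ha2 beside Csf2 (0.04, 0.817). Eps8l3, on the other side of Csf1, had at most 1 fragment per library and, like Il3, was not tested. Mtss1l, 429 bases from Il34, averaged 2.69 FPKM with a log2 difference of 0.04 (limma adjusted p = 0.916).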
